A study of Rattus norvegicus and Mus musculus with 22 samples.

Results

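Whole lung of rats lacking interleukin 6 (IL6KO) was compared with whole lung of wild-type (WT) rats on day 7 of the Sugen-hypoxia model. The comparison rests on 6 of the 22 RNA-seq samples of the study, 3 per genotype, chosen by their labels for tissue, day and genotype, and it covers all genes. Both groups had received the Sugen-hypoxia treatment, in which a VEGF receptor inhibitor is combined with low oxygen to cause pulmonary hypertension, so every difference below is between treated lungs. Other samples of the study are day 56 whole lung (3 per genotype), CD4-positive cells isolated from day 7 lung by magnetic sorting (2 per genotype) and splenic CD4-positive cells of reporter mice. The labels used here give the IL6KO genotype without naming the part of Il6 that is deleted, and give no strain, age or sex. They number the rats of a group without saying that these are separate animals, so p-values measure the spread between these samples, which may be technical.

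IL-6 is a cytokine that binds its receptor (Il6r), on the cell or in soluble form, and then engages gp130 (Il6st), the chain shared by the whole cytokine family. Gp130 activates JAK kinases and the transcription factor STAT3, which switches on target genes, among them Socs3, whose product in turn blocks the receptor. In pulmonary hypertension the small lung arteries narrow through growth of endothelial and smooth muscle cells and through inflammation, and IL-6 is among the cytokines raised in patients and models.

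Total counts ran from 15011692 to 23590070 per library. Levels are CPM (a library's counts scaled to a common total) after TMM normalisation, and changes as log2 fold changes of IL6KO over WT, so that a positive value is higher in IL6KO. Surfactant gene Sftpc (10810 to 13580 CPM), club cell gene Scgb1a1 (4976 to 7223 CPM) and endothelial cadherin Cdh5 (789 to 970 CPM) were high in all 6 libraries, as lung requires. Heart muscle genes were also present, with sums of 434 to 700 CPM over 18 genes and overlapping groups. Haemoglobin and other red cell genes summed to 30460 CPM in IL6KO 1 and to 12080 to 16340 CPM in the other 5 libraries. Of 14368 genes tested, 300 (2.09%) had an adjusted p under 0.05 in edgeR (quasi-likelihood fit, Benjamini-Hochberg) and are termed called, 134 higher (0.933%) and 166 lower (1.16%). The median change of all genes tested was 0.0031. The first principal component (36.5% of the variance) held the WT libraries at -27.6 to -15.2 and the IL6KO libraries at 11.5 to 25.6. On the second (22.9%), WT 3 and IL6KO 3 lay at 12.7 and 29.9, apart from the other 4. All 300 called genes kept their direction in every alternative that tested them, but only 62 kept the call whichever 1 of the 6 libraries was left out. The groups did not overlap in any of the 300, so a lack of overlap in a called gene adds no support to its call.

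**Figure D1:**
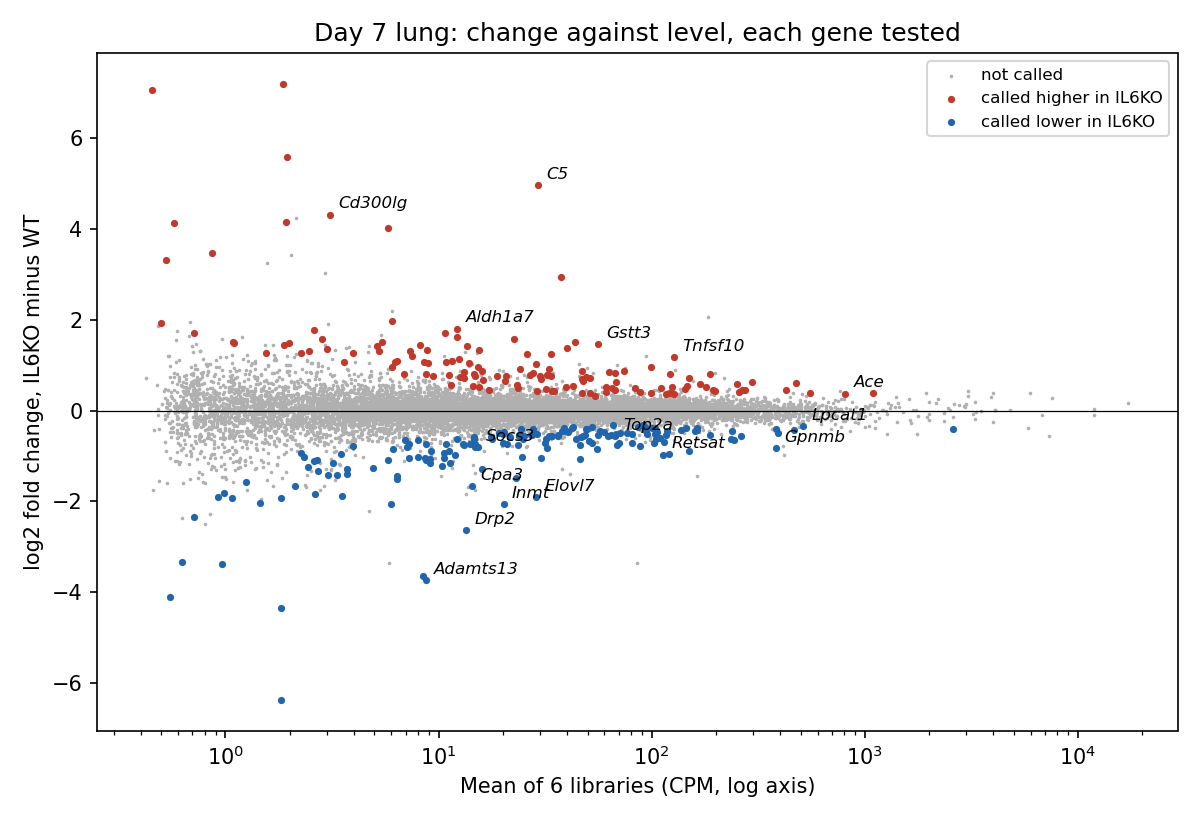
Each point is 1 of the 14368 genes tested in day 7 lung, with its mean level over the 6 libraries (CPM, log axis) against its log2 fold change, IL6KO minus WT. The 134 genes called higher are red and the 166 called lower blue; C5 and Cd300lg are among the large rises, and Adamts13 and Drp2 among the large falls, at low to moderate levels, while called genes with high levels, such as Ace and Lpcat1, changed by less than 1.

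Il6 itself was barely detected. WT lungs held 5, 11 and 6 Il6 counts and IL6KO lungs 8, 5 and 2, below the filter for testing, so the transcript does not check the genotype and a difference was not detectable at this depth. Of the receptor chains, Lifr, the receptor of leukaemia inhibitory factor, rose. Its values were 167, 141 and 134 CPM in WT and 216, 208 and 211 CPM in IL6KO, for a change of 0.53 on the log2 scale (SE 0.089, edgeR adjusted p = 0.0208). The receptor of IL-6 itself, Il6r, stood at 45.7, 55.2 and 53.2 CPM in WT and 59.3, 68.4 and 64.0 CPM in IL6KO, without overlap, but was not called (0.31, adjusted p = 0.143). Gp130 gene Il6st overlapped between the groups (301 to 353 and 312 to 437 CPM). The other 5 of 8 receptor genes tested were not called either, so 1 of 8 was called, beside 2.09% of all genes. Of 7 tested ligand genes of the family 0 were called in edgeR, DESeq2 or limma-voom, and 2 had an unadjusted p under 0.05. Lif, one of these ligands, lay lower without overlap, at 3.58, 5.05 and 3.999 CPM in WT and 2.71, 2.54 and 1.49 CPM in IL6KO (-0.92, adjusted p = 0.117).

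Downstream of the receptors, 0 of 10 JAK and STAT genes were called in edgeR, DESeq2 or limma-voom, Stat3 included (-0.14, adjusted p = 0.426), and 1 had an unadjusted p under 0.05. Socs3 was the only called gene of 13 feedback inhibitors, beside 2.09% of all genes called. Its levels were 17.6, 20.9 and 19.6 CPM in WT and 12.2, 9.45 and 11.7 CPM in IL6KO, so the lowest WT library lay above the highest IL6KO library. The fall of 0.80 on the log2 scale (SE 0.13, adjusted p = 0.0178) was not called without WT 2 (adjusted p = 0.0723) or IL6KO 2 (0.0563), and the Lifr rise not without WT 2 (0.0911), WT 3 (0.0617), IL6KO 1 (0.0737) or IL6KO 2 (0.0753). Among 19 genes that STAT3 is known to induce, 2 were called lower, beside 1.16% of all genes. They were Socs3 and the survivin gene Birc5 (described with the mitosis genes). The list's median was -0.13. Birc5 was called in 0 of the 6 fits with 1 library left out. Socs3 and Birc5 lie next to each other among the tested genes of the genome, and the part of their position in these changes was not tested. Pim1, a kinase gene of this list, was level, at 9.48 to 10.7 CPM in WT and 9.42 to 10.4 CPM in IL6KO. The letters TTCNNNGAA, the core of STAT binding sites, read alike on both strands and occurred in the 250 bases upstream of the start in 5.94% of the 10074 tested genes with an unambiguous promoter in the RefSeq table (GRCr8). They occurred in 4 of 14 promoters of the STAT3-induced list, in 11 of 93 promoters of genes called higher and in 6 of 115 of genes called lower, and not in this window of Socs3.

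Large changes fell on genes of unrelated function, some of which are described here; the unnamed points farther out in the plot of level against change include predicted genes and genes with means under 1 CPM. Complement component gene C5 rose from 0.862, 1.40 and 3.25 CPM in WT to 62.7, 53.7 and 53.1 CPM in IL6KO (4.96, SE 0.31, adjusted p = 0.000906). Cd300lg, a receptor gene of capillary and venule endothelium, was counted 3, 9 and 4 times in the WT libraries and 167, 66 and 86 times in the IL6KO ones (4.31, SE 0.45). Prox2, a homeobox gene, was counted 1, 7 and 3 times and 73, 56 and 69 times (4.16, SE 0.35). For each of these genes the lowest IL6KO library lay far above the highest WT library. The reverse held for Adamts13, the protease gene that trims von Willebrand factor, with 15.1, 17.4 and 16.1 CPM in WT and 1.05, 0.848 and 1.69 CPM in IL6KO (-3.73, SE 0.21, adjusted p = 0.000109). Asb15, a muscle ubiquitin ligase subunit gene, fell by 3.64, Drp2, a dystrophin-related gene of Schwann cells, by 2.63, and Inmt, a methyltransferase gene of lung, by 2.07 on the log2 scale. The fatty acid elongase gene Elovl7 fell from 46.0, 49.3 and 40.7 to 13.7, 11.3 and 11.4 CPM (-1.90, SE 0.11, adjusted p = 0.000109). All of these but Inmt were called with each library left out in turn. Inmt was not called without IL6KO 1 (adjusted p = 0.101) or IL6KO 3 (0.0673).

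**Figure D2:**
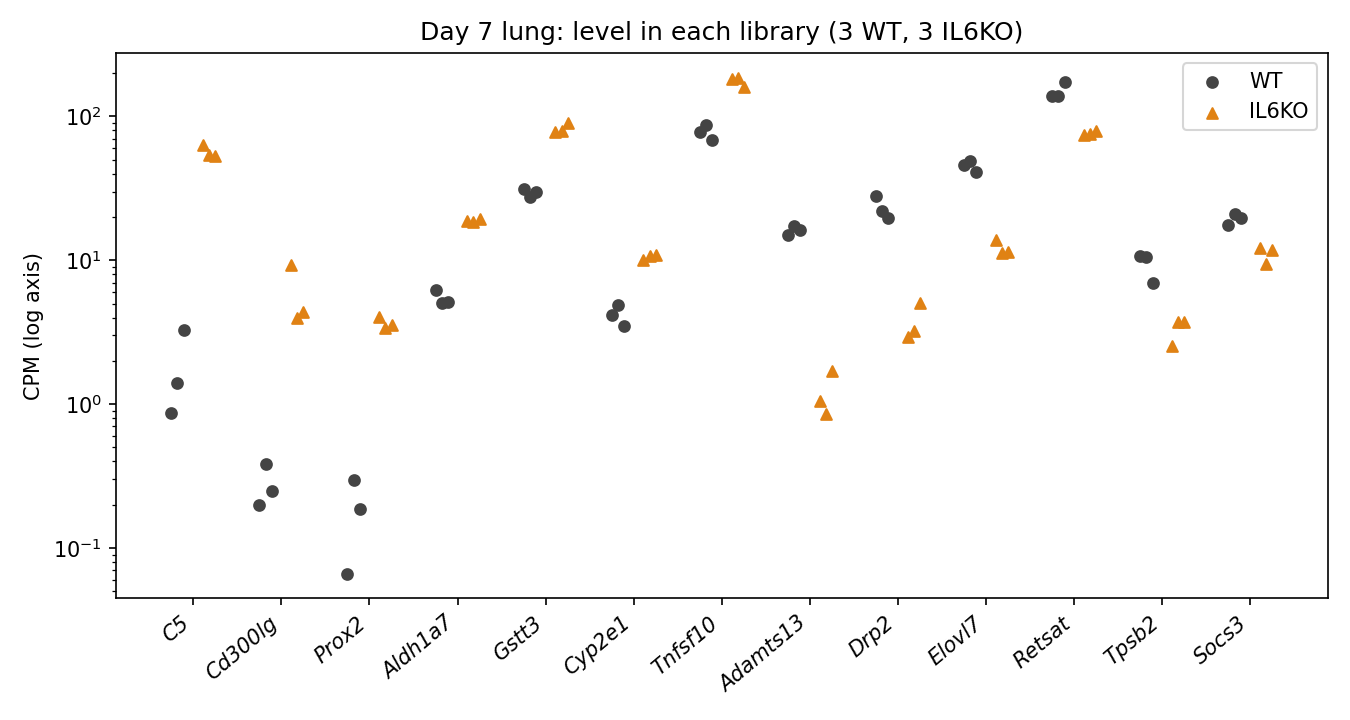
Level of 13 called genes in each of the 6 day 7 lung libraries (CPM, log axis); circles are the 3 WT libraries and triangles the 3 IL6KO libraries. For each gene, as for all 300 called genes, the 2 sets of points do not overlap. They run from C5 (0.862 to 3.25 CPM in WT, 53.1 to 62.7 CPM in IL6KO) to Socs3 (17.6 to 20.9 and 9.45 to 12.2 CPM).

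Genes of cytotoxic lymphocytes rose together. Of 10 tested genes of killer granules and their effectors 5 were called higher and 0 lower, beside 0.933% of all genes called higher, with a median of 1.00. These were Prf1 (perforin), Gzma, Gzmk and Gzmm (granzymes) and Nkg7, a granule membrane protein gene. Prf1 stood at 16.8, 25.4 and 24.0 CPM in WT and 64.4, 57.8 and 50.9 CPM in IL6KO. Gzma stood at 3.71, 5.60 and 5.62 CPM in WT and 19.2, 15.9 and 14.5 CPM in IL6KO (1.72, SE 0.18, adjusted p = 0.00228). Gzmk and Gzma are neighbours in the genome, and both are close relatives of other granzymes, so reads can be split between copies. For Gzmb the groups overlapped (0.597 to 2.50 and 1.99 to 3.69 CPM). In whole tissue, more cells of a type and more RNA per cell cannot be told apart.

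Most killer cell receptors showed the same direction. Of 15 tested, 5 were called higher (Klrb1b, Klrb1c, Klrd1, Klre1 and Ncr1, receptors of natural killer cells) and 0 lower, with a median of 1.04. A change above 0 was seen in 13. The groups did not overlap for 10, beside 18.8% of all genes tested. Of these 10, Ncr3 lay lower (-0.58, adjusted p = 0.430) and the others higher. Ncr1, an activating receptor gene typical of natural killer cells, stood at 3.18, 4.79 and 4.12 CPM in WT and 8.42, 9.93 and 7.73 CPM in IL6KO (1.09, SE 0.18, adjusted p = 0.0194). A further 3 genes of such cells were called with each library left out, each the only call higher in its list. The lists were 13 lymphocyte transcription factors, 12 homing genes and 27 chemokines, beside 0.933% of all genes called higher. Their medians were 0.13, 0.17 and 0.16, and 5, 3 and 9 of their members had changes below 0. Tbx21, the transcription factor gene of type 1 lymphocytes, rose from 5.11, 5.13 and 6.37 to 11.8, 11.6 and 11.1 CPM. S1pr5, the receptor gene by which natural killer cells leave tissue, rose from 2.12, 3.61 and 2.62 to 7.81, 9.51 and 6.81 CPM (1.5, SE 0.22, adjusted p = 0.0118). Ccl5, a chemokine gene of killer lymphocytes, rose from 15.7, 22.7 and 21.5 to 49.95, 45.9 and 46.2 CPM (1.24).

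Of 19 general T cell genes 0 were called in edgeR or limma-voom and 1 in DESeq2, with 6 at an unadjusted p under 0.05 and a median of 0.062. Cd3e, a subunit of the T cell receptor complex, overlapped between the groups (5.70 to 9.08 and 6.35 to 7.92 CPM). Cd8a lay without overlap at 8.95 to 11.4 CPM in WT and 11.9 to 16.7 CPM in IL6KO (0.60, adjusted p = 0.111), and Cd4 overlapped. Of 13 B cell genes 0 were called in edgeR and 1 in DESeq2 (6 at an unadjusted p under 0.05; median 0.38). The number of cytotoxic calls moved when a library was left out. Leaving out any WT library kept 4 granule genes, and leaving out IL6KO 1, 2 or 3 kept 2, 2 or 4. For the receptor list the calls became 2, 1 or 2 (WT 1, 2 or 3 left out) and 0, 0 or 7 (IL6KO 1, 2 or 3 left out). Limma-voom called 5 granule genes and 2 receptor genes, and DESeq2 5 of each. IL6KO 3 had the lowest value of the 3 IL6KO libraries for all 10 called members of both lists, as the plot of called members by library shows.

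**Figure D3:**
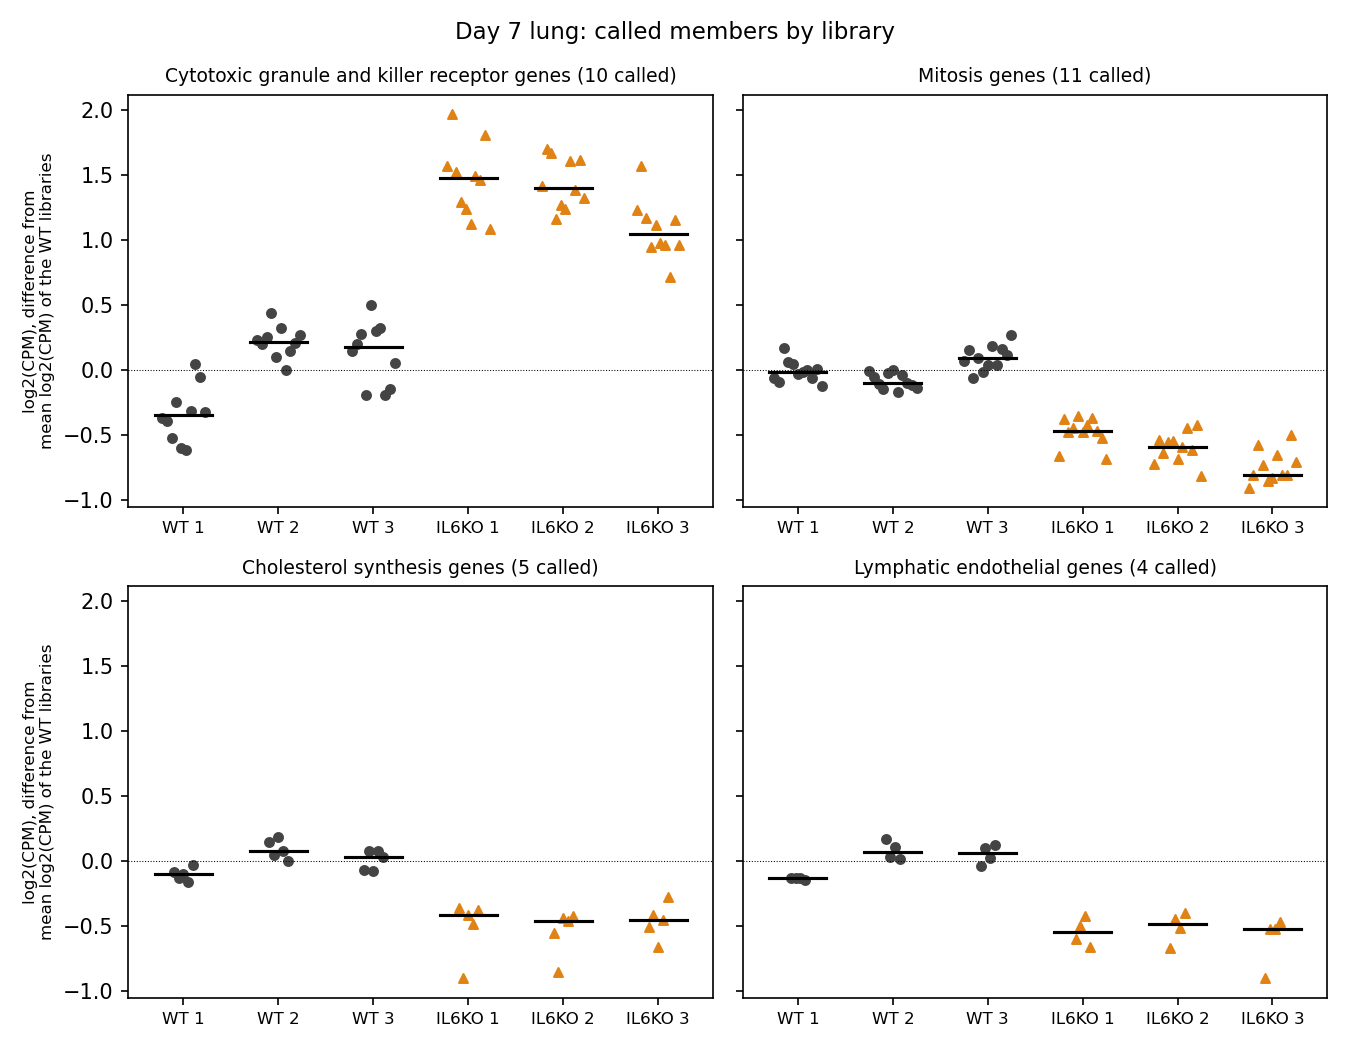
Called members of 4 gene groups in the 6 day 7 lung libraries, each as its log2(CPM) minus its mean log2(CPM) over the 3 WT libraries; bars are medians over the members. The 10 cytotoxic granule and killer receptor genes lie higher in all 3 IL6KO libraries, and the 11 mitosis, 5 cholesterol synthesis and 4 lymphatic endothelial genes lie lower. The groups do not overlap in any called gene, so this separation adds no support to the calls.

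Genes of mitosis fell. Of 41 tested, 11 were called lower and 0 higher, beside 1.16% of all genes called lower. A change below 0 was seen in 40, where 7079 of 14368 genes had one. The groups did not overlap for 31, beside 18.8% of all genes. The median was -0.48. The called genes cover entry into mitosis (Ccnb1 and Cdk1, the cyclin and its kinase, and Foxm1, their transcription factor), the chromosome passengers Aurkb and Birc5, the spindle (Tpx2, Prc1, Bub1b), chromosome structure and separation (Top2a, Espl1) and protein destruction (Ube2c). Promoters of such genes often carry the letters TTTGAA near the start, the cell cycle homology region, which repressor and activator complexes of the cell cycle bind. The motif was chosen after the list's values were seen. TTTGAA, or TTCAAA when read on the opposite strand, occurred within 250 bases upstream of the start in 17 of 33 mitosis genes with a promoter in the table, in 5 of the 7 called among them, and in 10.3% of all tested genes with a promoter. TTTGAA or TTCAAA also occurred in 16 of 93 promoters of genes called higher and in 22 of 115 of genes called lower. The CCAAT box, or ATTGG, which can share at most 1 letter with these, occurred in 25 of 33 mitosis promoters and in 35.4% of all. It also occurred in 16 of 28 promoters of DNA replication genes and in 14 of 16 of cholesterol synthesis genes. The stretches of 70 bases below are the 5 called ones, shown because the motif lies within 22 bases of the start in 4 of them. They are printed 5′ to 3′ on the strand of the gene, all upstream of the start, with TTTGAA or TTCAAA in capitals.
Cdk1: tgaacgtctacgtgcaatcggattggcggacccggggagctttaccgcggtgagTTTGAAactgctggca
Top2a: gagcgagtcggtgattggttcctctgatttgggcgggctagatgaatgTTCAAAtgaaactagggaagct
Birc5: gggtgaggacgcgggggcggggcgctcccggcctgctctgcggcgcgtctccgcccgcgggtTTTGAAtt
Prc1: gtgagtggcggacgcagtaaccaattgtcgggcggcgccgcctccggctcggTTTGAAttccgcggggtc
Espl1: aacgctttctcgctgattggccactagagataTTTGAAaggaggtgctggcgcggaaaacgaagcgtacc
On GRCr8 these are chr20:19265223-19265292 (plus strand), chr10:84473094-84473163 (minus), chr10:103572076-103572145 (plus), chr1:143659411-143659480 (plus) and chr7:135302601-135302670 (plus). The motif begins 16, 22, 8, 18 and 83 bases upstream of the annotated start, in that order. The promoters of Ccnb1 and Bub1b held no such letters in this window.

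Ccnb1 stood at 15.9, 16.4 and 17.4 CPM in WT and 10.5, 9.99 and 8.81 CPM in IL6KO (-0.76, SE 0.11, adjusted p = 0.0125). It was the only called mitosis gene that kept its call with each library left out. Cdk1 stood at 36.8, 37.8 and 43.8 CPM in WT and 30.4, 27.1 and 22.5 CPM in IL6KO (-0.57), and Top2a, the topoisomerase gene of dividing cells, at 83.0, 78.7 and 79.2 and at 62.7, 54.9 and 44.5 CPM (-0.57). In each of these genes IL6KO 3 was lowest, and the groups did not overlap, as in every called gene. DESeq2 called 15 of the mitosis genes and limma-voom 3. The list had 2 calls whichever WT library was left out, and 2, 1 or 5 when IL6KO 1, 2 or 3 was. The proliferation antigen Mki67 lay lower without overlap but was not called (-0.40, adjusted p = 0.165). Of 35 DNA replication genes 0 were called in edgeR and 3 in DESeq2 (14 at an unadjusted p under 0.05), with 32 below 0 and a median of -0.28. The ribonucleotide reductase gene Rrm2 came near the threshold, at 13.3, 13.8 and 16 CPM in WT and 8.97, 10.2 and 6.45 CPM in IL6KO (-0.75, adjusted p = 0.0590).

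**Figure D4:**
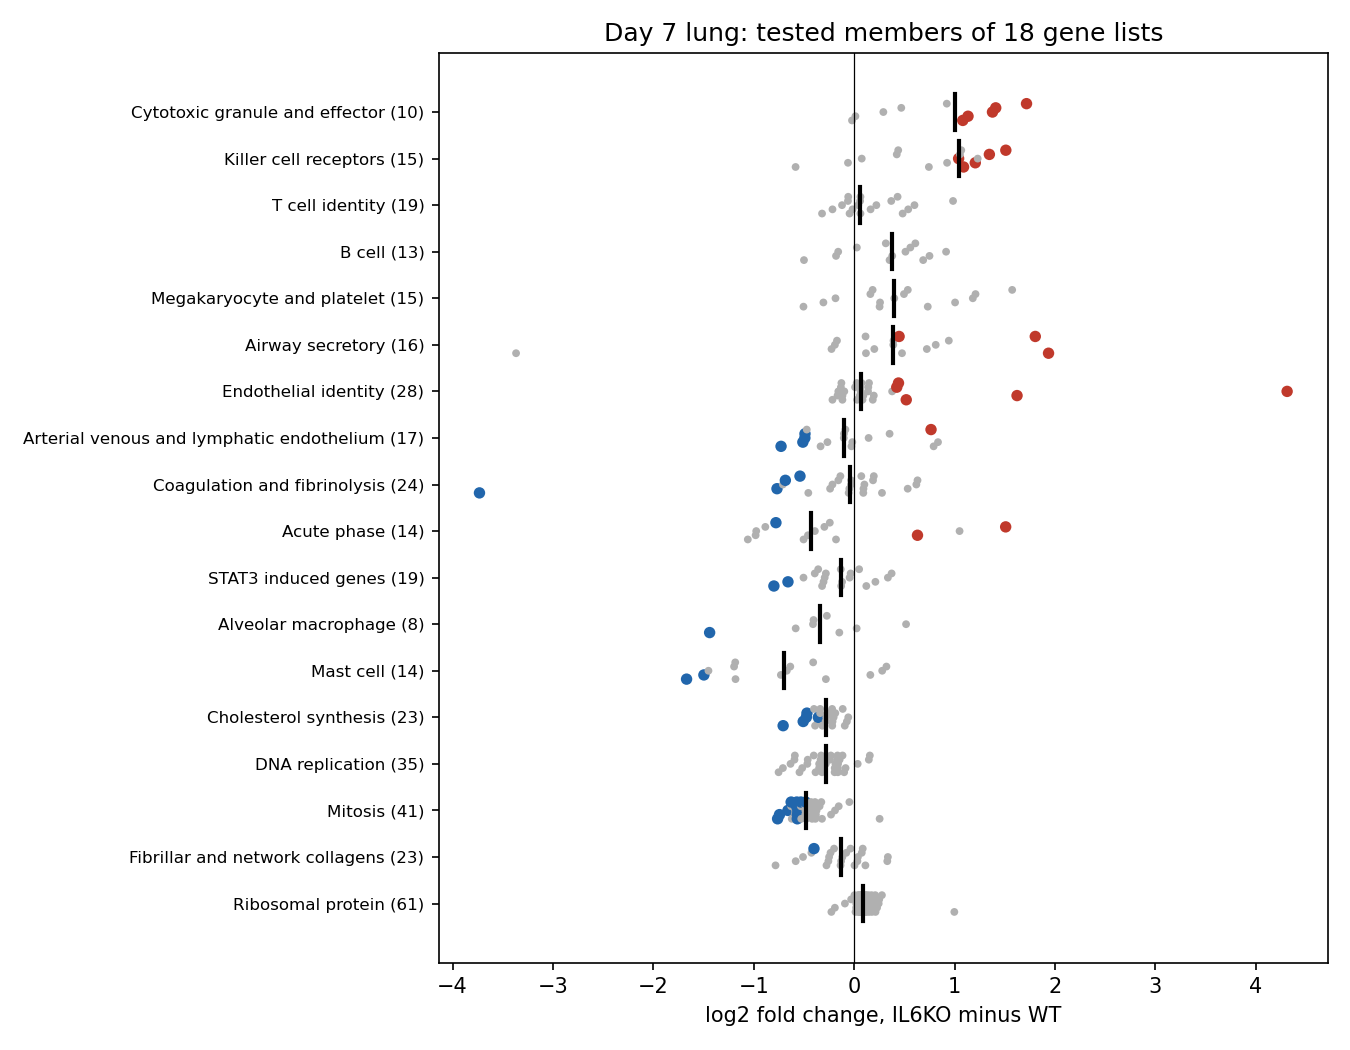
Log2 fold change, IL6KO minus WT, of every tested member of 18 gene lists in day 7 lung, with the number tested in brackets; red and blue points are genes called higher and lower, grey points were not called, and black bars are medians. The medians lie at 1.00 and 1.04 for the 2 cytotoxic lists, at -0.48 for mitosis, at -0.70 for mast cells and at 0.062 for T cell identity.

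Of 28 general endothelial genes 5 were called higher and 0 lower, beside 0.933% of all genes called higher, with a median of 0.068. Besides Cd300lg they were Gpihbp1, the anchor of lipoprotein lipase on capillaries, Sox17, a transcription factor gene of arterial endothelium, and Clec14a and Tmem100, both surface protein genes of lung endothelium. Gpihbp1 stood at 6.63, 4.79 and 6.69 CPM in WT and 26.1, 13.5 and 15.6 CPM in IL6KO (1.62, SE 0.26, adjusted p = 0.0205). Sox17 stood at 37.3, 29.6 and 31.4 CPM in WT and 51.6, 42.0 and 46.9 CPM in IL6KO (0.52). The pan-endothelial genes were close to level: Cdh5 changed by 0.18, the VEGF receptor gene Kdr by 0.14 and von Willebrand factor gene Vwf by -0.16, and 0 of these were called. With WT 1, 2 or 3 left out 4, 1 and 2 of the 28 genes were called, and with IL6KO 1, 2 or 3 left out 2, 2 and 4.

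Of 17 arterial, venous and lymphatic genes 4 were called lower and 1 higher, beside 1.16% and 0.933% of all genes. All 4 lower ones are expressed by lymphatic endothelium. They are Prox1, the factor that sets lymphatic identity, Flt4, the receptor of VEGF-C, Mmrn1, a multimerin gene, and Reln, the reelin gene. Lymphatic genes were not a list of their own. Prox1 stood at 8.29, 10.2 and 8.81 CPM in WT and 5.98, 5.69 and 4.86 CPM in IL6KO (-0.73, SE 0.14, adjusted p = 0.0382), and Flt4 at 81.9, 91.4 and 95.8 and at 63.4, 65.6 and 62.5 CPM (-0.49, SE 0.078, adjusted p = 0.0181). Lymphatic chemokine gene Ccl21 (-0.47, adjusted p = 0.0923) and hyaluronan receptor gene Lyve1 (-0.27, adjusted p = 0.314) also lay lower without overlap and were not called, and Pdpn, which alveolar epithelium also expresses, overlapped. The ligand of Flt4, Vegfc, fell as well, from 56.0, 60.9 and 60.6 to 45.8, 48.5 and 43.8 CPM (-0.36, SE 0.074, adjusted p = 0.0422). The noradrenaline transporter gene Slc6a2, in the same list as a venous gene of lung, rose from 24.7, 27.2 and 22.5 to 38.4, 45.8 and 42.7 CPM (0.77, SE 0.10) and was called with each library left out. The arterial Notch genes Dll4 (0.79, adjusted p = 0.127), Hey1 (0.83, adjusted p = 0.161) and Efnb2 (0.35, adjusted p = 0.0902) lay higher without overlap and were not called, and the arterial genes Gja5 (-0.088) and Bmx (-0.34) overlapped. The 4 calls became 2, 0 or 1 when WT 1, 2 or 3 was left out, and 0, 0 or 3 when IL6KO 1, 2 or 3 was.

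Among growth factors of the vessel wall, Angpt1, a ligand that stabilises endothelium, and the platelet-derived growth factors Pdgfb and Pdgfd rose. Of 22 VEGF, angiopoietin and PDGF genes 3 were called higher and 2 lower, beside 0.933% and 1.16% of all genes. Pdgfb stood at 129, 107 and 123 CPM in WT and 178, 159 and 163 CPM in IL6KO (0.48, SE 0.088, adjusted p = 0.0314), and Angpt1 at 25.3, 28.1 and 26.5 and at 37.7, 38.8 and 34.2 CPM (0.47, adjusted p = 0.0306). This list had 2, 0 or 1 calls with WT 1, 2 or 3 left out, and 0, 0 or 4 with IL6KO 1, 2 or 3 left out. Of 25 vasoactive genes and drug targets of pulmonary hypertension, 2 were called higher and 0 lower, beside 0.933% and 1.16% of all genes. Ace, the angiotensin-converting enzyme gene of lung capillaries, stood at 681, 699 and 737 CPM in WT and 924, 886 and 927 CPM in IL6KO (0.37, SE 0.069, adjusted p = 0.0321). The vasodilator peptide gene Adm went from 8.16, 9.04 and 7.31 to 17.3, 13.99 and 11.3 CPM (0.79, adjusted p = 0.0475). The Ace call held without WT 3 or IL6KO 3 and ended without any of the other 4 (adjusted p = 0.0782 to 0.124), and that of Adm held only without IL6KO 3 (adjusted p = 0.107 to 0.135 without the others). In the BMP and activin pathway, whose receptor gene Bmpr2 is the main gene of heritable pulmonary hypertension, 0 of 31 genes were called in edgeR and 3 in DESeq2 (10 at an unadjusted p under 0.05). The BMP family ligand gene Bmp3, given under the other observations, is not in this list and was called higher with each library left out. Bmpr2 lay higher without overlap, at 169, 142 and 136 CPM in WT and 189, 188 and 184 CPM in IL6KO (0.33, adjusted p = 0.112), and the BMP antagonist gene Grem1 lower, at 8.36, 9.33 and 10.6 and at 3.88, 6.42 and 2.82 CPM (-1.12, adjusted p = 0.0675).

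Genes of clotting and its control fell where they were called. Of 24 tested, 4 were called lower and 0 higher, beside 1.16% of all genes called lower. Among the 4 were Adamts13, tissue factor F3, which starts coagulation, and Serpine2, a thrombin inhibitor gene (-0.77). F3 stood at 116, 161 and 139 CPM in WT and 93.2, 99.4 and 93.1 CPM in IL6KO (-0.54, SE 0.11, adjusted p = 0.0439). The median of the list was -0.040, and thrombomodulin gene Thbd and plasminogen activator gene Plat were not called. Leaving out WT 1, 2 or 3 gave 4, 1 or 2 calls, leaving out IL6KO 1, 2 or 3 gave 1, 1 or 2, and Adamts13 was among them each time. Of 15 platelet genes 0 were called in edgeR and 1 in DESeq2 (7 at an unadjusted p under 0.05), with a median of 0.40.

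All 23 tested genes of the cholesterol synthesis list had a change below 0, where 7079 of 14368 genes did. 5 were called lower, beside 1.16% of all genes, and the median was -0.28. The called genes include Sqle and Lss, which make and close the sterol precursor, Cyp51, which demethylates it, and Dhcr7, which acts at the end of the pathway. Lss stood at 91.4, 104 and 106 CPM in WT and 53.8, 55.3 and 74.9 CPM in IL6KO (-0.71, SE 0.13, adjusted p = 0.0281). Sqle stood at 65.7, 77.2 and 66.4 CPM in WT and 54.2, 47.5 and 48.9 CPM in IL6KO (-0.48). Every IL6KO library lay below every WT library for both genes, as the groups did not overlap in any called gene. The list's summed level was 1974, 2101 and 1866 CPM in WT and 1621, 1619 and 1594 CPM in IL6KO. DESeq2 called 8 of the list and limma-voom 3. Its calls numbered 2, 0 or 0 with WT 1, 2 or 3 left out and 0, 0 or 4 with IL6KO 1, 2 or 3 left out. Retsat, an enzyme gene of retinol metabolism, fell from 139, 139 and 172 to 74.7, 75.3 and 79.5 CPM (-0.97, SE 0.096, adjusted p = 0.00204) and was called with each library left out.

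Enzymes that handle foreign compounds gave some of the steadiest calls. Of 32 tested, 3 rose and 1 fell, beside 0.933% of all genes called higher and 1.16% called lower. Gstt3, a glutathione transferase gene, stood at 31.4, 27.7 and 30 CPM in WT and 77.7, 79.0 and 89.4 CPM in IL6KO (1.47, SE 0.086, adjusted p = 0.000109). Cytochrome P450 gene Cyp2e1 stood at 4.18, 4.92 and 3.50 CPM in WT and 10.02, 10.7 and 10.8 CPM in IL6KO (1.31, SE 0.15, adjusted p = 0.00393). Haem oxygenase gene Hmox1 fell from 67.0, 88.6 and 105 to 53.4, 50.4 and 56.0 CPM (-0.71, adjusted p = 0.0432), a call that held only without WT 1 (adjusted p = 0.0761 to 0.165 without the others). Outside that list, the neighbouring aldehyde oxidase genes Aox1 (0.87, SE 0.093) and Aox3 (0.87, SE 0.13) also rose. Of these, Gstt3, Cyp2e1 and Aox1 kept their calls with each library left out, and Aox3 lost its call without IL6KO 2 (adjusted p = 0.0550).

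Of 16 airway secretory genes 3 were called higher and 0 lower, beside 0.933% of all genes called higher, with a median of 0.39. The club cell secretoglobin gene Scgb3a2 stood at 366, 359 and 363 CPM in WT and 462, 473 and 548 CPM in IL6KO (0.45, SE 0.080, adjusted p = 0.0281). Aldehyde dehydrogenase gene Aldh1a7 stood at 6.23, 5.01 and 5.12 CPM in WT and 18.8, 18.6 and 19.5 CPM in IL6KO (1.80, SE 0.12, adjusted p = 0.000267), and Muc4, a membrane mucin gene, was counted 3, 4 and 4 times in the WT libraries and 16, 11 and 16 times in the IL6KO ones. Scgb1a1 lay higher without overlap (0.39, adjusted p = 0.0558). The widest change in the list was in the other direction, in the protease inhibitor gene Slpi, which lay lower without overlap and was not called (-3.37, adjusted p = 0.0604), and Bpifb1, Aldh1a1 and Krt8 also had changes below 0. Leaving out WT 1, 2 or 3 gave 2, 1 and 2 calls in this list, and IL6KO 1, 2 or 3 gave 1, 2 and 2. Of 28 genes of motile cilia 0 were called in edgeR or DESeq2, with 0 at an unadjusted p under 0.05 (median 0.090). Of 17 alveolar type 2 genes 2 were called lower, beside 1.16% of all genes. The surfactant lipid enzyme gene Lpcat1 stood at 570, 570 and 580 CPM in WT and 440, 450 and 465 CPM in IL6KO (-0.34, adjusted p = 0.0321). The other was the mucin gene Muc1 (-0.49, adjusted p = 0.0497). Both were called only without IL6KO 3 when 1 library was left out (adjusted p = 0.0636 to 0.178 without the others). Surfactant genes Sftpc (0.037) and Sftpb (0.011) were level.

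Scnn1b and Scnn1g, which encode the beta and gamma subunits of the epithelial sodium channel that clears fluid from alveoli and airways, fell side by side. Scnn1g stood at 124, 137 and 122 CPM in WT and 69.8, 80.8 and 81.0 CPM in IL6KO (-0.72, SE 0.086, adjusted p = 0.00511). Scnn1b stood at 57.2, 55.6 and 49.2 CPM in WT and 33.3, 34.8 and 36.3 CPM in IL6KO (-0.63, SE 0.083, adjusted p = 0.00820). Both were called with each library left out. The alpha subunit gene Scnn1a, which lies elsewhere in the genome, overlapped between the groups (267 to 351 and 233 to 371 CPM; -0.095, adjusted p = 0.880).

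Of 14 mast cell genes tested, 2 were called lower and 0 higher, beside 1.16% of all genes called lower, and 8 had no overlap, beside 18.8% of all genes. The median was -0.70. Tpsb2, a tryptase gene, stood at 10.7, 10.5 and 6.94 CPM in WT and 2.55, 3.69 and 3.74 CPM in IL6KO (-1.5, SE 0.22, adjusted p = 0.0119). Carboxypeptidase gene Cpa3 stood at 27.1, 20.2 and 18 CPM in WT and 6.81, 9.33 and 4.45 CPM in IL6KO (-1.67, SE 0.25, adjusted p = 0.0181). The IgE receptor genes Fcer1a (-1.20, adjusted p = 0.0574) and Ms4a2 (-1.18, adjusted p = 0.0784) and the chymase gene Mcpt1 (-1.45, adjusted p = 0.0752) lay lower without overlap and were not called. The protease genes Tpsab1 (-0.73, adjusted p = 0.484) and Cma1 (-0.67, adjusted p = 0.436) overlapped. Kit, which other lung cells also express, was higher without overlap (0.32, adjusted p = 0.0811). Hdc (0.28) and Gata2 (0.16) were above 0 with overlap, and 11 of the 14 genes were below 0. Tpsb2 was called with each library left out, and Cpa3 was not called without WT 2 (adjusted p = 0.0539) or IL6KO 1 (0.0825).

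Of 8 alveolar macrophage genes tested 1 was called, and of 20 interstitial macrophage and monocyte genes 2, beside 2.09% of all genes. Among 8 alveolar macrophage genes Siglec5, a sialic acid receptor gene, fell from 10.5, 11.4 and 6.19 to 3.54, 3.03 and 3.79 CPM (-1.44, adjusted p = 0.0181). Among 20 genes of interstitial macrophages and monocytes Gpnmb, a gene of lipid-laden and tissue-repair macrophages, fell from 378, 546 and 541 to 268, 282 and 278 CPM (-0.82, SE 0.13, adjusted p = 0.0181), and Plac8, a gene of classical monocytes and other leukocytes, rose from 32.4, 42.5 and 35.4 to 65.2, 70 and 50.4 CPM (0.75, adjusted p = 0.0321). Lgals3, the galectin 3 gene of macrophages and epithelium, fell from 258, 314 and 322 to 178, 182 and 211 CPM (-0.64, adjusted p = 0.0181). Without 1 library the highest adjusted p of these calls was 0.0759 for Siglec5 and 0.0733 for Gpnmb (both without IL6KO 2), 0.111 for Plac8 (without IL6KO 2) and 0.0807 for Lgals3 (without IL6KO 2). Of the 10 neutrophil, 11 dendritic cell and 21 interferon response genes 0 were called in edgeR, with 2, 1 and 3 at an unadjusted p under 0.05, and 0, 0 and 1 in DESeq2. Of 27 chemokine genes 1 was called higher and 2 lower, beside 0.933% and 1.16% of all genes. Ccl5 rose, and Ccl24, an eosinophil attractant (-0.96, adjusted p = 0.0415), and the mucosal chemokine Cxcl17 (-0.48, adjusted p = 0.0429) fell. With 1 library left out Ccl24 was never called (adjusted p = 0.0502 to 0.167). Cxcl17 was called only without IL6KO 3 (adjusted p = 0.0782 to 0.154 without the others).

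Acute phase genes, which IL-6 drives in liver, lay mostly lower, while the few calls were split. Of 14 tested 2 were called higher and 1 lower, beside 0.933% and 1.16% of all genes. A change below 0 was seen in 11 and above 0 in 3, with a median of -0.43. The fibrinogen chain gene Fgg fell from 100, 118 and 118 to 72.2, 61.0 and 62.5 CPM (-0.78, SE 0.095, adjusted p = 0.00569). The protease inhibitor gene Serpina1 rose from 21.3, 29.9 and 16.3 to 64.5, 55.9 and 73.4 CPM (1.51, SE 0.21, adjusted p = 0.0180), and complement gene C3 from 192, 258 and 241 to 339, 377 and 357 CPM (0.63, adjusted p = 0.0215). Lcn2, the lipocalin gene of inflamed epithelium, varied within WT, at 345, 638 and 685 CPM, and was lower in every IL6KO lung at 286, 290 and 269 CPM, but was not called (-0.98, adjusted p = 0.134). Fgg was called with each library left out. Serpina1 was not called without WT 1 (adjusted p = 0.0627), IL6KO 1 (0.0717) or IL6KO 3 (0.0657), nor C3 without IL6KO 1 (0.0537) or IL6KO 2 (0.0891). Of 27 complement genes 2 were called higher (C5 and C3) and 2 lower, beside 0.933% and 1.16% of all genes. The 2 lower ones were the inhibitory factor gene Cfi (-1.05, adjusted p = 0.0212) and the C5a receptor gene C5ar1 (-0.54, adjusted p = 0.0340). The Cfi call held without WT 3 or IL6KO 3 (adjusted p = 0.0623 to 0.0888 without the others) and that of C5ar1 only without WT 1 (adjusted p = 0.0517 to 0.117).

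Lists of the vessel wall and matrix held 1 or 2 called genes each, all lower, beside 1.16% of all genes called lower. Of 22 smooth muscle contractile genes 2 fell, calponin gene Cnn1 and the actin gene Actg2 (155, 156 and 179 CPM in WT, 125, 126 and 124 CPM in IL6KO; -0.38, adjusted p = 0.0394), while Acta2 lay lower without overlap (-0.21, adjusted p = 0.171). Rgs5 was the 1 called of 15 pericyte genes, at 18.5, 24.7 and 21.5 CPM in WT and 13.9, 14.5 and 13.9 CPM in IL6KO (-0.62, adjusted p = 0.0365). Col12a1 was the 1 called of 23 collagen genes (467, 433 and 414 CPM, then 335, 351 and 309 CPM; -0.40, adjusted p = 0.0371). Tenascin C gene Tnc and the thrombospondin gene Thbs2, of 32 matrix glycoproteins, the crosslinking enzyme gene Loxl2, of 20, and the membrane metalloproteinase gene Mmp14, of 28, fell by 0.61, 0.57, 0.40 and 0.44 on the log2 scale. Col1a1 lay lower without overlap (2043, 1674 and 2512 CPM, then 1209, 1624 and 1542 CPM; -0.51, adjusted p = 0.164). None of these calls held with every library left out: Cnn1, Col12a1 and Loxl2 were called in 0 of the 6 fits, Actg2, Tnc and Mmp14 in 1, and Rgs5 and Thbs2 in 2.

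Several lists had no called gene in edgeR. These were the lists of immediate early genes (20), NF-kB and inflammasome genes (23), circadian clock (19), glucocorticoid response (15), respiratory chain (28), fatty acid oxidation (26), unfolded protein response (21), heat shock (13), antigen processing (17) and ribosomal proteins (61), with medians from -0.089 to 0.15. At an unadjusted p under 0.05 they held between 1 (heat shock, fatty acid oxidation) and 9 genes (ribosomal proteins), and DESeq2 called at most 3 in a list (NF-kB and inflammasome). Of 31 hypoxia and glycolysis genes Adm alone was called, beside 2.09% of all genes, with a list median of 0.067. The list of red cell genes had 0 of 13 called and 0 at an unadjusted p under 0.05 (median 0.39). Of 15 heart muscle genes 1 was called, beside 2.09% of all genes. Myh7, the slow myosin gene, fell from 4.84, 4.24 and 4.12 to 1.99, 2.12 and 1.84 CPM (-1.15, adjusted p = 0.0178), while Myh6 overlapped (114 to 193 and 153 to 174 CPM). The Myh7 call held without WT 3 or IL6KO 3 (adjusted p = 0.0517 to 0.0631 without the others).

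The genome around Il6 was checked for neighbours that moved with the genotype. None of the 20 tested protein-coding genes nearest to Il6, all on its inner side since it ends its chromosome's gene order in RefSeq GRCr8, was called in edgeR or DESeq2 (5 at an unadjusted p under 0.05), and their median was -0.011. Called genes did sit next to each other more often than called genes occur: of 550 genes adjacent to a called gene 37 were called (6.73%), beside 2.08% of the 13413 tested genes in the order, and no test was made of this. They form 18 runs, the longest of 3 genes. Some runs are gene families with 1 direction, such as Gzma and Gzmk, Klre1 and Klrd1, Aox1 and Aox3, and Scnn1g and Scnn1b. In others the neighbours went opposite ways, as for Adamts13 (-3.73) and Rexo4 (0.69), Ccl5 (1.24) and Ccl9 (-1.30), and the death ligand gene Tnfsf10 (1.18) and the lipid hydrolase gene Nceh1 (-0.52, not called without WT 2 or IL6KO 1). All the other genes of these 3 pairs kept their calls with each library left out. The run of 3 lies in the major histocompatibility complex: the class Ia genes RT1-A2 (289, 317 and 328 CPM in WT, 239, 194 and 204 CPM in IL6KO; -0.55) and RT1-A1 (-0.63) and their neighbour Vps52 (-0.45) all fell. Reads of such class I RT1 genes, which are near-identical copies that vary between rat strains, can be split between copies, so these 2 values are uncertain. The call of RT1-A1 ended without WT 2 (adjusted p = 0.0713) or IL6KO 2 (0.0603), that of RT1-A2 also without WT 3 (0.0588; 0.0761 and 0.0891 without WT 2 and IL6KO 2), and that of Vps52 without any library but IL6KO 3 (adjusted p = 0.0713 to 0.132).

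The same genes were then read in day 56 lung and in the CD4-positive isolates of day 7 lung, which share no library with day 7 whole lung. The labels used here do not say whether isolates and whole lungs come from the same rats. At day 56, where 2 of 14475 genes (0.0138%) were called, 284 of the 300 genes were tested and 0 were called. In direction, 103 of 126 genes higher at day 7 and 139 of 158 lower ones had the same sign at day 56, with medians of 0.33 and -0.28 beside 0.80 and -0.71 at day 7. The genes were chosen by their day 7 values, which widens the day 7 medians. Smaller medians at day 56 could therefore arise even with equal effects. The share of all genes with the same sign on both days was not computed. Adamts13 (-2.97, adjusted p = 0.0610) and Retsat (-1.02, adjusted p = 0.0599) came nearest the threshold among the named genes. The cytotoxic and mitosis lists had medians of -0.053 and -0.10 at day 56, and Prf1 changed by 0.0058. The test of the difference between the days over the 12 lung libraries called 0 of 13865 genes in edgeR, so no gene is shown to differ in its response between days by that test. DESeq2 called 48. In edgeR 1043 genes had an unadjusted p under 0.05, 106 of them among 286 day 7 calls tested. That number is raised by the choice of genes, since the test reuses the day 7 values. The 2 genes called at day 56 were not called at day 7. Ephx2, the soluble epoxide hydrolase gene, stood at 11.5, 10.4 and 1.25 CPM in WT and 1.11, 1.94 and 1.95 CPM in IL6KO at day 7, so WT 3 lay within the IL6KO range (-2.22, adjusted p = 0.315), and the protease inhibitor gene Slpi at 6.10, 7.81 and 18.1 and at 0.332, 1.69 and 1.08 CPM (-3.37, adjusted p = 0.0604).

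In the CD4-positive isolates, where 784 of 12243 genes (6.40%) were called, 3.50% higher and 2.91% lower, 213 of the 300 genes were tested. The sign was the same for 131 of them, 52 of 94 genes higher and 79 of 119 lower in day 7 lung, with medians of 0.15 and -0.21. Of the 213, 46 were called, 33 of them in the day 7 lung direction, which is 21.6% of the tested day 7 lung calls and 5.87% of the isolate calls. Socs3 fell in both, by 0.80 in whole lung and by 1.5 in the isolates (SE 0.16, adjusted p = 0.00897). Fgg fell in both (-2.61 in the isolates, adjusted p = 0.00514) and S1pr5 rose in both (0.87, adjusted p = 0.00831). Of the 10 granule genes 2 were called lower in the isolates and 0 higher, Gzmk, which fell by 1.39 (adjusted p = 0.0177), and Nkg7, which fell by 1.12 (adjusted p = 0.0272), while Prf1 changed by -0.26 (adjusted p = 0.208) and Gzma by 1.04 (adjusted p = 0.222), neither called. T cell markers moved with the genotype there: 8 of 19 T cell identity genes were called lower and 0 higher, with a median of -0.32. Cd8a, a marker of lymphocytes other than CD4-positive T cells, stood at 131 and 96.1 CPM in WT and 13.2 and 10.9 CPM in IL6KO isolates (-3.23, adjusted p = 0.00327). The part of such cells in the granule gene values was not tested. Endothelial and epithelial genes such as Ace (-1.23, adjusted p = 0.0356) and Cxcl17 (-1.92, adjusted p = 0.0117) were also detected in the isolates, which were sorted for CD4, and their part in these values was not tested.

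**Figure D5:**
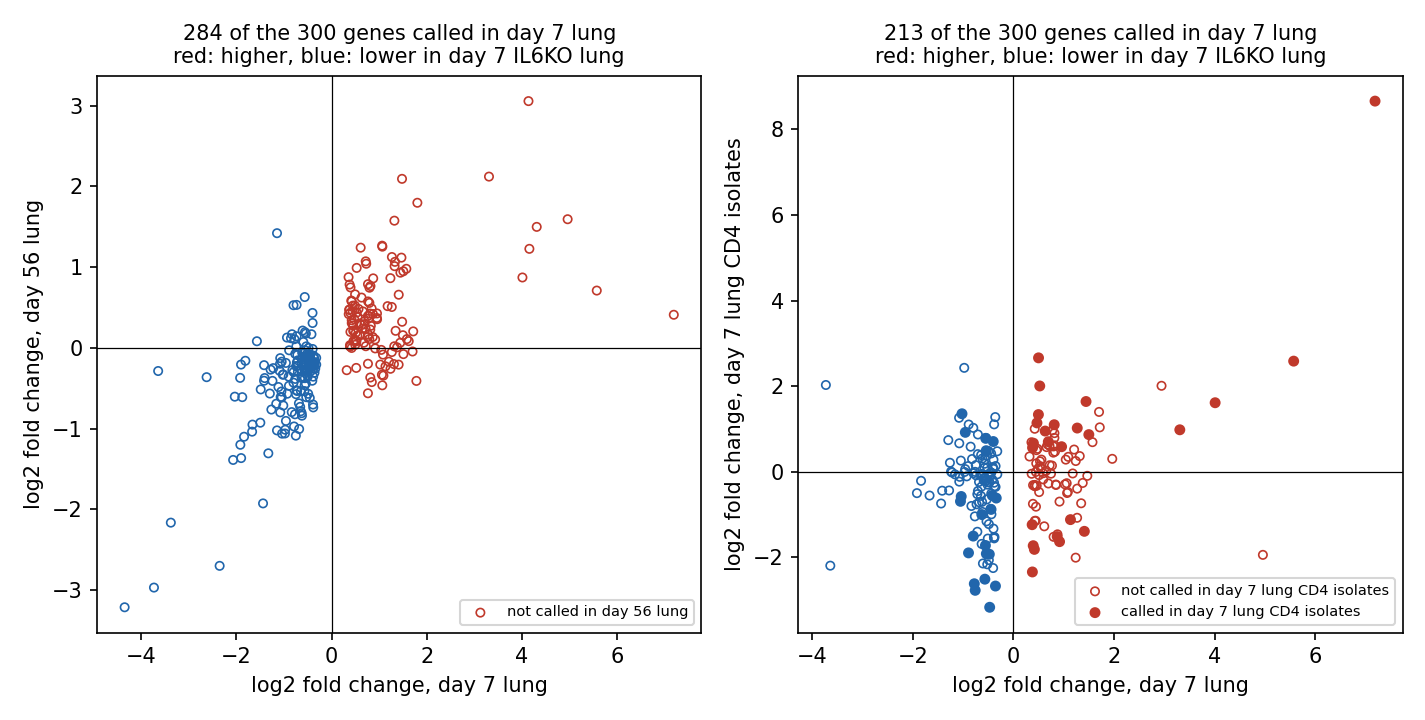
Log2 fold change, IL6KO minus WT, of the genes called in day 7 lung (horizontal axes) against the same genes in day 56 lung (left, 284 genes) and in CD4-positive isolates of day 7 lung (right, 213 genes); filled points were called in the second comparison. At day 56 most genes keep their sign and 0 are called. Median changes are smaller there than at day 7, by whose values the genes were chosen. In the isolates 46 are called and 33 of these keep their sign.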

How the data were processed

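The authors deposited raw counts per gene, 1 column per sample, per the file headers, and these counts were used for 6 day 7 lung libraries, 6 of day 56 lung and 4 of lung CD4-positive isolates. The submitters' processing notes name GRCm38, a mouse build, for the rat samples too, while aligner and counter were not given in the sources used. Day 7 lung libraries held 15011692 to 23590070 counts, and 0 columns lacked a sample. Each table lists 22081 symbols. A count of 0 is bounded by 3 counts (0.127 to 0.200 CPM there), which covers counting error only. Of the listed genes, 16, such as Rpl8, had 0 counts in all day 7 lung libraries and over 10 CPM in all day 56 ones, so day and table cannot be told apart for those.

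Each comparison was fitted on its own libraries with edgeR 4.0.16 in R 4.3.3 (filterByExpr, TMM, robust glmQLFit and glmQLFTest), adjusted by Benjamini-Hochberg across every tested gene, and the code was tested on simulated data. Adjusted p-values of single genes are from this test. Genes named are the IL-6 pathway genes, the 12 largest called rises and falls (groups without overlap, mean of at least 1 CPM, no predicted names), the 8 called genes with the highest CPM per direction, all called list members or else up to 4 by smallest p, and called neighbours of Il6 or of another called gene. Other list members, lung markers and genes called at day 56 are named beside them for comparison and were chosen after their values were seen. The members and lists were chosen with earlier results of these data known. Some genes sit in more than 1 list. A few genes are not reported by name here, although they are part of the totals and list counts. Alternatives were RLE size factors, no filter, a minimum mean of 5 CPM, a minimum log2 fold change of 1, DESeq2 1.42.0, limma-voom (limma 3.58.1), a replicate block, all 12 lung libraries in 1 fit, and leaving out each library. Same-numbered WT and IL6KO libraries had deviations from their group means that correlated at 0.056, 0.078 and 0.256 across genes, and no label says that a number marks a shared litter or batch, so the numbers were not taken to pair the samples. Promoters came from RefSeq GRCr8 by symbol, with symbols that occur more than once left out, which left 70.1% of tested genes. That build's gene order gave the neighbours (93.6% of tested genes matched).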

Additional observations from a re-analysis of the deposited data

How the results depend on the processing

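The day 7 lung count of 300 called genes was 296 with RLE size factors, 347 without the filter, 222 in limma-voom and 235 at a mean of at least 5 CPM. It moved to 551 in DESeq2 (294 of the 300 among them), to 59 with all 12 lung libraries in 1 fit, to 104 at a log2 fold change of at least 1, and to between 94 (without IL6KO 2) and 372 (without IL6KO 3) with 1 library left out. With the replicate block it was 543, 283 of the 300 among them. Of the 300 calls, 62 held in all 6 leave-one-out fits, 118 in at least 3 and 35 in none. For the difference between the days, where edgeR called 0, the count was 1 with the replicate block, 48 in DESeq2, and 0 to 597 with 1 library left out (597 without day 56 WT 3). For day 56 lung, where it called 2 (1649 at an unadjusted p under 0.05), the count was 7 without the filter, 0 with the replicate block, 178 in DESeq2, and 1 to 1268 with 1 library left out (1268 without WT 3). For the CD4 isolates the 784 calls became 76 without WT 1 and up to 970 otherwise when 1 library was left out, where the lone library of a group is assumed to vary like the others. All 300 day 7 lung calls kept their sign in each alternative that tested them; signs were not compared for the other results. RLE in place of TMM moved the day 56 median of all genes from -0.012 to -0.0039, and the other medians by less. The cause of these movements was not tested. Genes with few counts, such as Prox2 and Muc4 in WT, are limited by depth.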

Other observations

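Genes of tuft cells, a rare chemosensory epithelial cell, lay lower in IL6KO day 7 lung. The list was written after values had been seen, so it has no test of its own. Of 18 genes tested 5 were called lower and 0 higher, beside 1.16% of all genes called lower. A change below 0 was seen in 17, and the median was -0.46. Pou2f3, the transcription factor gene that tuft cells need, stood at 4.04, 2.33 and 3.31 CPM in WT and 0.775, 1.39 and 0.870 CPM in IL6KO (-1.66, SE 0.31, edgeR adjusted p = 0.0321). Sh2d7 (-1.88), the villin gene Vil1 (-1.92), advillin gene Avil (-1.23) and Rgs13 (-2.03) were called as well. The taste channel gene Trpm5 lay without overlap at 29.8, 13.4 and 19.9 CPM in WT and 4.15, 5.87 and 9.42 CPM in IL6KO but was not called (-1.68, adjusted p = 0.108). With 1 library left out Sh2d7 kept its call in 5 of 6 fits and Pou2f3, Avil, Vil1 and Rgs13 in 2 each. At day 56 these 5 called genes had changes of -0.25 to -1.20 and were not called.

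A list of epithelial sodium and chloride channels, also written after values had been seen, had 4 of 12 genes called lower, beside 1.16% of all genes. Besides Scnn1b and Scnn1g these were the chloride channel gene Cftr (29.1, 29.2 and 26.7 CPM in WT, 21.9, 17.7 and 18.2 CPM in IL6KO; -0.56) and the anion exchanger gene Slc26a4 (23.7, 41.2 and 37.6 CPM, then 11.96, 13.7 and 11.1 CPM; -1.49). The chloride channel gene Ano1 (0.13) and the channel regulator gene Nedd4l (0.14) were not called. Slc26a4 was not called without IL6KO 3 (adjusted p = 0.0536), and Cftr held its call without IL6KO 1 or IL6KO 3 alone (adjusted p up to 0.126 without the others).

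Genes called with each library left out and not described above were chosen after their values were seen. Gap junction gene Gja1 fell from 174, 222 and 185 to 107, 113 and 92.9 CPM (-0.89, SE 0.11), and the purine enzyme gene Gda from 155, 180 and 142 to 86.3, 78.9 and 79.6 CPM (-0.96, SE 0.096). Keratin gene Krt80 fell from 54.6, 67.2 and 64.8 to 25.7, 30.8 and 32.5 CPM (-1.07, SE 0.11). Bmp3, a BMP family ligand, rose from 57.8, 53.6 and 45.4 to 104, 96.7 and 86.3 CPM (0.87, SE 0.10), and Slfn4, an interferon-related schlafen gene, from 90.0, 84.2 and 90.7 to 179, 154 and 132 CPM (0.81, SE 0.11).

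Of 27 tested RT1 genes of the major histocompatibility complex 3 were called higher and 3 lower, beside 0.933% and 1.16% of all genes. The class I values are uncertain between near-identical copies. The class II gene RT1-DOa rose from 4.51, 4.67 and 5.75 to 7.75, 9.87 and 8.60 CPM (0.81, SE 0.15, edgeR adjusted p = 0.0340). With 1 library left out it kept its call in 2 of 6 fits. RT1-CE1 rose by 0.50 and RT1-CE10 by 0.52 in day 7 lung, and in the CD4 isolates by 2.66 and 2.01, both with an adjusted p of 0.000124. RT1-A2 fell by 0.55 in whole lung and rose by 0.78 in the isolates, while RT1-A1 fell in both, by 0.63 and by 1.00 (adjusted p = 0.00192 in the isolates). The widest change was in RT1-M2, at 0.995, 2.16 and 2.13 CPM in WT and 0.166, 0.0606 and 0.256 CPM in IL6KO lung (-3.38, adjusted p = 0.0126).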
